A study of Mus musculus with 21 samples.

Results

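The gene programs that separate BCR-ABL1 from C-MYC were described in primary mouse B cell precursors, as the contrast of 2 BCR-ABL1 with 2 C-MYC RNA-seq libraries across all genes that passed a filter on low counts. Of the 24421 gene symbols in the count table, 12786 passed, and every one of them entered the comparison, whether or not its locus carries DNA damage marks. These 4 libraries belong to a series of 21 samples, in which 2 further RNA-seq libraries, of cells with the empty vector (EV), served as a reference level. The other samples are ChIP-seq tracks and were not used here.

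BCR-ABL1 is the fusion tyrosine kinase of Philadelphia chromosome leukemias, which in B cell precursors signals through the RAS to ERK cascade, PI3K and AKT, and STAT5, and it can replace signals that the cells normally draw from the interleukin-7 receptor. C-MYC is a transcription factor that pairs with MAX on E-box sequences and is known for raising genes of ribosome production, nucleotide synthesis and glucose and amino acid use. B cell precursors pass from a cycling stage driven by interleukin-7 and the pre-B cell receptor (pre-BCR) to a resting stage in which the light chain genes are rearranged by RAG1 and RAG2.

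All groups were bone marrow cells of 53BP1-/- C57BL/6 mice, grown ex vivo with interleukin-7 and spinoculated with a MIGR1 retrovirus that was empty (EV), carried human BCR-ABL1p210 or carried mouse C-MYC, and RNA was taken 7 to 9 days after transduction. By its label every library is therefore from cells without 53BP1, a DNA repair factor, and no library of cells with 53BP1 was compared. The cells are bulk cultures, for which the sources used here give neither the age of the mice nor a sort of transduced cells before RNA extraction. The replicates are given as repeat experiments without a named animal, so the p-values measure the spread between these samples, which may be technical. In bulk RNA, fewer cells of a type and less RNA per cell cannot be told apart.

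The 6 libraries held between 20687092 and 24095955 counts on genes, of which 4.07% to 5.28% fell on the 10 most abundant genes. The first principal component (60.1% of the variance) ordered the libraries from EV over BCR-ABL1 to C-MYC, and the second (27.2%) set BCR-ABL1 apart from the other 2 groups. Replicates spread beyond counting noise in every group (chi-square over its degrees of freedom 10.7 for BCR-ABL1, 20.3 for C-MYC and 45.6 for EV). All values per library are given below as CPM, counts scaled to the TMM-normalized library size, with replicate 1 before replicate 2. CPM is not corrected for gene length, so levels are compared between libraries and not between genes. Log2 fold changes are BCR-ABL1 over C-MYC unless stated otherwise, so that a positive value is higher in BCR-ABL1. A gene was called where the quasi-likelihood test of edgeR gave an adjusted p (Benjamini-Hochberg, BH) below 0.05.

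The vectors were looked at first. Myc had 343 and 348 CPM in BCR-ABL1, 1743 and 1233 in C-MYC and 181 and 137 in EV. Both C-MYC libraries were the highest and both EV libraries the lowest, with a log2 fold change of -2.11 ± 0.19 (SE, edgeR BH-adjusted p = 0.000805), although Myc counts cannot separate the endogenous gene from the vector. Mycn, a close relative of Myc, went the opposite way: it had 125 and 122 CPM in BCR-ABL1, 27 and 19.5 in C-MYC and 34.6 and 52.5 in EV. The BCR-ABL1 libraries lay above the other 4, and the log2 fold change was 2.41 ± 0.23 (SE, edgeR BH-adjusted p = 0.000955). Bcr and Abl1, the mouse genes whose human counterparts make the fusion, were higher in BCR-ABL1 by 0.99 and 0.58 on the log2 scale, both called, and how reads of the human fusion were assigned to them was not tested. Trp53bp1, the gene targeted in these mice, still gave between 15.7 and 30.2 CPM in every library, and which exons those reads came from was not tested. Xist and Ddx3y, which mark RNA of female and of male cells, were both present in every library, at 255 to 542 and 37.7 to 87.3 CPM. The B lineage label held in all 6 libraries: Cd79a, Pax5 and Ebf1 were expressed throughout, with values below.

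Across all genes, 1523 were called higher in BCR-ABL1 and 1468 higher in C-MYC, which is 11.9% and 11.5% of those tested, or 23.4% together. The median log2 fold change was 0.96 among the former and -0.80 among the latter. More than 2-fold differences were called for 729 genes toward BCR-ABL1 and 531 toward C-MYC, while the middle 50% of all genes lay between -0.33 and 0.37. The BCR-ABL1 and C-MYC libraries did not overlap for 69.9% of the genes tested, so a lack of overlap alone marks no gene here. The number of calls rested on having both replicates. It was 618 without BCR-ABL1 replicate 1, 1130 without BCR-ABL1 replicate 2, 1291 without C-MYC replicate 1 and 1038 without C-MYC replicate 2, and it was 4500 and 4519 without EV replicate 1 or 2. Each fit without 1 compared library assumes that the lone library of that group varies like the other groups. No called gene changed sign in any of these 6 fits. With the replicate number as a block, 4278 genes were called, among them 12 that are given below as not called: B2m, Ccnd2, Cd79b, Cdk4, Cdkn1a, Cxcr4, H2-K1, Ikzf1, Irf4, Socs2, Tgfb1 and Tkt.

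**Figure D1:**
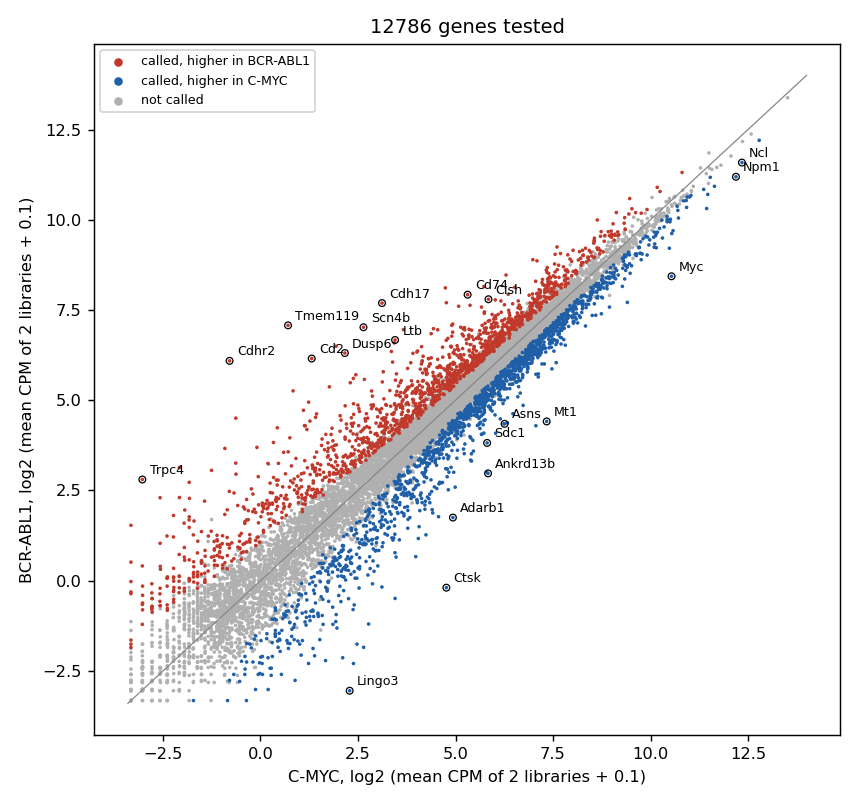
Mean CPM of BCR-ABL1 (vertical) against C-MYC (horizontal), each the log2 of the mean of 2 libraries plus 0.1, for the 12786 genes tested (points, colored by call), with equal levels on the diagonal. The 1523 genes called higher in BCR-ABL1 include 729 that differ more than 2-fold, against 531 of the 1468 called higher in C-MYC, among which are Npm1 and Ncl near the upper right end.

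The genes were read in 52 lists of pathways, cell types and checks, of which 1428 members were tested and 108 belong to more than 1 list. Within them 232 genes were called higher in BCR-ABL1 and 323 higher in C-MYC. Each list is given as its counts in both directions and its median log2 fold change, to be read against the 11.9% and 11.5% of all genes and an all-gene median of 3.3e-05. Because BCR-ABL1 replicate 1 is the library without which most calls were lost, the counts without it are given beside each list. In 22 list directions no member was called, and in these at most 2 members reached an unadjusted p below 0.05 in edgeR and at most 1 was called by DESeq2. As the plot of list members shows, the signaling lists all had medians above 0, as did the B lineage lists apart from germinal center and plasma cell genes. The lists of metabolism and protein synthesis had medians below 0, apart from cholesterol synthesis and lysosomal genes.

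**Figure D2:**
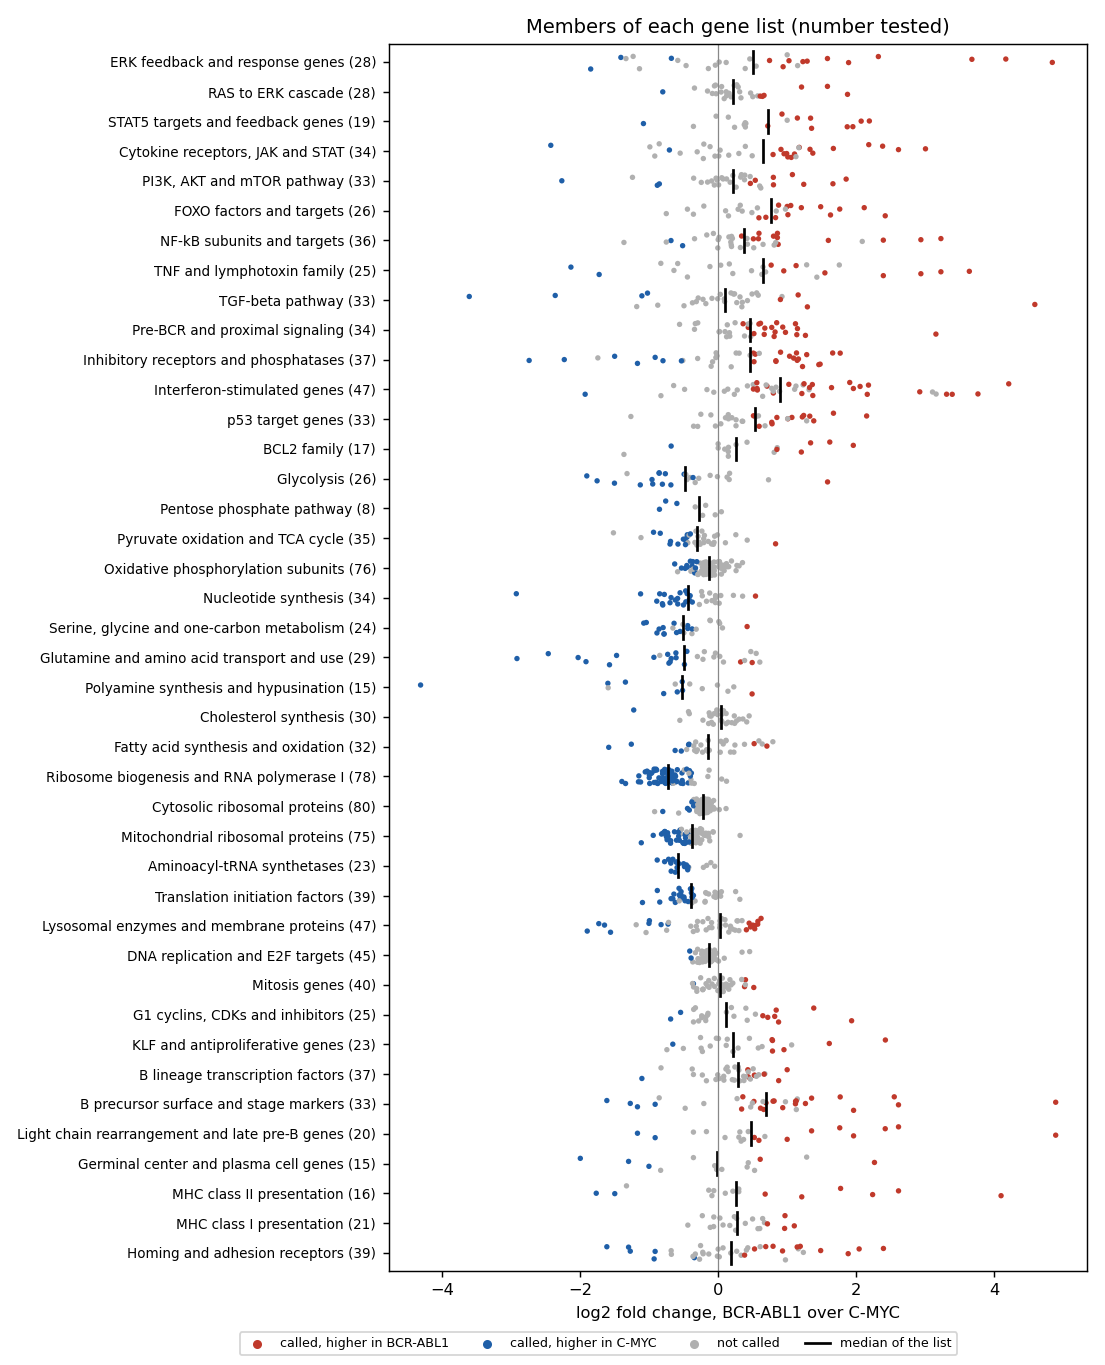
Log2 fold change, BCR-ABL1 over C-MYC, of each tested member (points, colored by call) of 41 signaling, metabolic, cell cycle and lineage lists, with the number tested in parentheses and the list median as a black bar. The ribosome biogenesis members form a compact cloud around a median of -0.72, whereas members of the ERK, cytokine and interferon lists spread widely toward BCR-ABL1.

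The genes with the largest differences toward BCR-ABL1 lay mostly outside these lists. Cdhr2, a protocadherin of epithelial brush borders, had 74.8 and 61.4 CPM in BCR-ABL1, 0.506 and 0.449 in C-MYC and 3.74 and 6.48 in EV. EV held a few CPM and C-MYC less than 1, and the log2 fold change was 7.14 ± 0.34 (SE, edgeR BH-adjusted p = 0.000134). Tmem119, a membrane protein used as a marker of microglia, had 149 and 120.4 CPM in BCR-ABL1, 2.39 and 0.674 in C-MYC and 5.47 and 2.13 in EV. Its level in BCR-ABL1 was far above that of the other 4 libraries, at a log2 fold change of 6.46 ± 0.55 (SE, edgeR BH-adjusted p = 0.000619). Cdh17, an adhesion molecule expressed on early B lineage cells and on intestinal epithelium, had 209 and 204 CPM in BCR-ABL1, 8.83 and 8.31 in C-MYC and 22.9 and 9.53 in EV. C-MYC lay below EV and BCR-ABL1 far above both, at 4.59 ± 0.37 (SE, edgeR BH-adjusted p = 0.000562). A further gene of this kind was Scn4b, a sodium channel subunit, with a log2 fold change of 4.40. Trpc4, a cation channel, had 1 count in both C-MYC libraries together against 311 in BCR-ABL1, which gives a ratio of 303 with an exact 95% interval of 54.0 to 12012 that covers counting error only.

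Toward C-MYC, the largest differences again mixed genes of several functions. Mt1, a metallothionein that binds zinc and copper, had 21.9 and 20.5 CPM in BCR-ABL1, 191 and 133 in C-MYC and 12 and 11.1 in EV. The C-MYC libraries were above all others, at -2.93 ± 0.19 (SE, edgeR BH-adjusted p = 0.000347). Adarb1, which edits adenosine in RNA, had 2.65 and 3.86 CPM in BCR-ABL1, 32.3 and 28.6 in C-MYC and 2.2 and 2.68 in EV. BCR-ABL1 and EV overlapped and C-MYC was far above them, at -3.22 ± 0.24 (SE, edgeR BH-adjusted p = 0.000436). Ankrd13b, which binds ubiquitin, had 8.11 and 7.4 CPM in BCR-ABL1, 65.9 and 48 in C-MYC and 3.13 and 3.13 in EV. Its log2 fold change was -2.88 ± 0.20 (SE, edgeR BH-adjusted p = 0.000358). Lingo3, a leucine-rich repeat protein, held 1 count in both BCR-ABL1 libraries together and 210 in C-MYC, a ratio of 215 toward C-MYC with an exact 95% interval of 38.2 to 8549. Ctsk, a collagen-degrading protease of osteoclasts and macrophages, had 0.427 and 1.12 CPM in BCR-ABL1, 22.1 and 32.2 in C-MYC and 0.795 and 2.47 in EV, and its fold change was -5.09 ± 0.56 (SE, edgeR BH-adjusted p = 0.0015). EV and BCR-ABL1 were both low here. Ctsk belongs to a list of 18 tested macrophage genes, whose summed level was 292 and 417 CPM in BCR-ABL1, 879 and 1479 in C-MYC and 896 and 1764 in EV. The sum was lowest in BCR-ABL1, and the part of macrophages in the Ctsk difference was not tested.

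Signaling was examined from the kinase cascades downward. ERK signaling induces its own brakes, among them dual-specificity phosphatases and Sprouty and Spred proteins, and these are used as its readout. Of 28 tested ERK feedback and response genes, 11 were called higher in BCR-ABL1 against 3 in C-MYC, with a median of 0.50 (5 and 0 without BCR-ABL1 replicate 1). Against EV, BCR-ABL1 had 5 of these genes called above and 6 below, at a median of -0.50. C-MYC had 1 above and 15 below, at a median of -1.20. Dusp6, the phosphatase that inactivates ERK, had 78.9 and 79.2 CPM in BCR-ABL1, 4.04 and 4.71 in C-MYC and 32.5 and 46.4 in EV. The order was BCR-ABL1, EV, C-MYC without overlap, and the log2 fold change was 4.17 ± 0.21 (SE, edgeR BH-adjusted p = 0.000134). Etv5, an ETS factor induced by ERK, had 23.2 and 29.3 CPM in BCR-ABL1, 2.07 and 2.02 in C-MYC and 5.33 and 7.65 in EV. C-MYC was again the lowest and BCR-ABL1 the highest, at 3.68 ± 0.26 (SE, edgeR BH-adjusted p = 0.00038). Spred1, which restrains RAS, had 129.6 and 130.2 CPM in BCR-ABL1, 36 and 34 in C-MYC and 69.4 and 43.2 in EV. The difference was 1.89 ± 0.21 (SE, edgeR BH-adjusted p = 0.00152). The Sprouty genes Spry1 and Spry2 were higher in BCR-ABL1 by 0.94 and 0.75, both called. The early response genes were mixed: Egr1 was not called, at 0.55 ± 0.40 (SE, edgeR BH-adjusted p = 0.353), Egr3 was called higher in BCR-ABL1, and Fosl2, Junb and Nr4a1 higher in C-MYC. Nr4a1, an orphan nuclear receptor induced by antigen receptor signals, had 24.7 and 24.5 CPM in BCR-ABL1, 116 and 61.5 in C-MYC and 71.2 and 32.1 in EV. The C-MYC libraries were unequal and overlapped EV, but both were above BCR-ABL1, at -1.85 ± 0.40 (SE, edgeR BH-adjusted p = 0.0152).

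The cascade that feeds ERK differed less. Of 28 components, 6 were called higher in BCR-ABL1 against 1 in C-MYC, with a median of 0.21 (1 and 0 without BCR-ABL1 replicate 1). The called members toward BCR-ABL1 included the exchange factors that load RAS with GTP in lymphocytes. Rasgrp1 had 105 and 73.3 CPM in BCR-ABL1, 33.1 and 26.2 in C-MYC and 57 and 85.1 in EV. C-MYC lay below the other 4 libraries, at 1.59 ± 0.25 (SE, edgeR BH-adjusted p = 0.00493). Rasgrp2 and Rasgrp3 followed at 0.64 and 1.88, and the adaptors Gab1 and Gab2 at 1.21 and 0.61, all called. Gab1 and Gab2 were nevertheless called lower in BCR-ABL1 than in EV, at -1.42 and -0.68. Over the list, 0 members were called above EV and 5 below with BCR-ABL1, against 1 and 11 with C-MYC. Hras was the member called toward C-MYC, with 28.5 and 32.8 CPM in BCR-ABL1, 56.3 and 50.9 in C-MYC and 24.5 and 29.7 in EV. Its BCR-ABL1 and EV libraries interleaved below C-MYC, at -0.80 ± 0.15 (SE, edgeR BH-adjusted p = 0.00948).

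STAT5 is activated by the interleukin-7 receptor and by BCR-ABL1, and it induces feedback inhibitors of the CIS and SOCS family as well as PIM kinases and survival genes. Of 19 such genes, 9 were called higher in BCR-ABL1 against 1 in C-MYC, with a median of 0.72 (5 and 1 without BCR-ABL1 replicate 1). Against EV, BCR-ABL1 had 2 of these genes called above and 5 below, at a median of -0.05. C-MYC had 1 above and 11 below, at a median of -0.86. Cish, the inhibitor most closely tied to STAT5, had 233 and 211 CPM in BCR-ABL1, 62.9 and 51.9 in C-MYC and 50.5 and 99 in EV. BCR-ABL1 lay above all other libraries and C-MYC within the range of EV, at 1.95 ± 0.28 (SE, edgeR BH-adjusted p = 0.00385). Socs3, which blocks JAK kinases, had 71.1 and 60.2 CPM in BCR-ABL1, 15.9 and 12.8 in C-MYC and 34.9 and 50 in EV. The order was BCR-ABL1, EV, C-MYC, at 2.19 ± 0.21 (SE, edgeR BH-adjusted p = 0.000955). Socs1 and the kinases Pim1 and Pim2 were called in the same direction at 1.87, 1.15 and 0.93. Bcl2l1, which encodes the survival protein BCL-XL, had 83.9 and 61.5 CPM in BCR-ABL1, 30 and 27.4 in C-MYC and 133 and 206 in EV. EV was highest here and C-MYC lowest, at 1.34 ± 0.23 (SE, edgeR BH-adjusted p = 0.00693). Pim3 was called toward C-MYC at -1.08. Socs2 was not called, with 0.39 ± 0.12 (SE, edgeR BH-adjusted p = 0.0557), and neither was the survival gene Mcl1, with 0.15 ± 0.095 (SE, edgeR BH-adjusted p = 0.301).

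STAT5 dimers are known to bind TTCNNNGAA, and the start regions of Cish and Socs3 are shown as examples of genes higher in BCR-ABL1 that hold it, given here in capitals. The letters were searched on both strands in windows from 250 bases before to 50 bases after the annotated start, from RefSeq on GRCm38.p6, and they occur in 2726 of all 32851 windows of that table (8.30%). The Cish window lies at chr9:107296409-107296708 on the plus strand and holds 2 matches that do not overlap, at positions 1 and 12 from the start site. The Socs3 window lies at chr11:117969317-117969616 on the minus strand and holds 1 match at -154.
Cish: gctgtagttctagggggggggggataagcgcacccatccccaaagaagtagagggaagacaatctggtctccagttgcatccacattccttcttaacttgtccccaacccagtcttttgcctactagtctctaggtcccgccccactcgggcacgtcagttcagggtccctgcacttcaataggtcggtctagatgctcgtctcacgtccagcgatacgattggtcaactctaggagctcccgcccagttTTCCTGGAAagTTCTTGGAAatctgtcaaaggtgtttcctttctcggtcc
Socs3: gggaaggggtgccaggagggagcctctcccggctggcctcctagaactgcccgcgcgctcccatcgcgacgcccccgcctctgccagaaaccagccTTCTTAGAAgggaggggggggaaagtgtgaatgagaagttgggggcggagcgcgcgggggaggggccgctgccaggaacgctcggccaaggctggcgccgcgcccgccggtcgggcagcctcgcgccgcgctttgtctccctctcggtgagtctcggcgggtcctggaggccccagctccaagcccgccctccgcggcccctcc
Pim1, also higher in BCR-ABL1, had 2 windows, of which 0 held TTCNNNGAA and 1 held CACGTG. No Socs2 entry was in the promoter table. The window of Dusp6 held neither these letters nor CACGTG, and of the lymphotoxin genes described below, Ltb and Lta each had 1 window, which held TTCNNNGAA. A match is a description of the sequence and not evidence of binding.

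Receptors and STAT factors upstream also separated the oncogenes. Of 34 cytokine receptor, JAK and STAT genes, 15 were called higher in BCR-ABL1 against 2 in C-MYC, with a median of 0.64 (9 and 0 without BCR-ABL1 replicate 1). Over EV, 0 members were called above and 11 below with BCR-ABL1, at a median of -0.35. With C-MYC they were 0 and 27, at a median of -1.22. Il10ra, the ligand-binding chain of the interleukin-10 receptor, had 153 and 123 CPM in BCR-ABL1, 33.1 and 27.6 in C-MYC and 109 and 89.3 in EV. C-MYC was below all other libraries, at 2.18 ± 0.17 (SE, edgeR BH-adjusted p = 0.000515). Il21r, which binds interleukin-21, had 32.9 and 25.1 CPM in BCR-ABL1, 6.07 and 5.03 in C-MYC and 66.4 and 33.9 in EV, with EV highest and C-MYC lowest, at 2.39 ± 0.33 (SE, edgeR BH-adjusted p = 0.00338). Stat4, the factor of interleukin-12 signals, had 83.8 and 79.2 CPM in BCR-ABL1, 10.4 and 9.83 in C-MYC and 71 and 47.9 in EV. EV lay just below BCR-ABL1, and C-MYC far below both, at 3.01 ± 0.20 (SE, edgeR BH-adjusted p = 0.000358). Both chains of the interferon-gamma receptor were higher in BCR-ABL1, Ifngr1 by 1.33 and Ifngr2 by 1.67. Csf2rb and its near copy Csf2rb2, which may share reads, were higher by 0.99 and 1.18. The interleukin-7 receptor chain Il7r had 46.6 and 42.8 CPM in BCR-ABL1, 50.8 and 52.4 in C-MYC and 184 and 131 in EV. Both oncogenes lay below EV, and they did not differ by call, at -0.21 ± 0.17 (SE, edgeR BH-adjusted p = 0.412). Stat5a and Stat5b were not called either, at -0.30 ± 0.16 (SE, edgeR BH-adjusted p = 0.204) and -0.12 ± 0.11 (SE, edgeR BH-adjusted p = 0.468).

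PI3K makes the lipid signal that activates AKT, and AKT in turn holds FOXO factors out of the nucleus. Of 33 genes of the PI3K, AKT and mTOR pathway, 8 were called higher in BCR-ABL1 against 3 in C-MYC, at a median of 0.21 (3 and 1 without BCR-ABL1 replicate 1). Those toward BCR-ABL1 held kinases and their brakes alike. Pik3cd, the catalytic subunit of leukocytes, had 1279 and 1074 CPM in BCR-ABL1, 587 and 528 in C-MYC and 963 and 1072 in EV. EV lay close to BCR-ABL1, and C-MYC below both, at 1.08 ± 0.12 (SE, edgeR BH-adjusted p = 0.00156). The lipid phosphatases Inpp5d and Inpp4b were higher in BCR-ABL1 by 0.54 and 1.24. Toward C-MYC, Deptor, an inhibitor bound to mTOR, had 4.36 and 3.32 CPM in BCR-ABL1, 19.7 and 17.2 in C-MYC and 4.44 and 6.9 in EV. BCR-ABL1 and EV were both low, and the difference was -2.27 ± 0.27 (SE, edgeR BH-adjusted p = 0.00195). Eif4ebp1, the translation repressor that mTOR inactivates, was also higher in C-MYC, by -0.88 ± 0.16 (SE, edgeR BH-adjusted p = 0.00752).

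FOXO factors and their targets went toward BCR-ABL1. Of 26 tested, 13 were called higher in BCR-ABL1 against 0 in C-MYC, with a median of 0.76 (6 and 0 without BCR-ABL1 replicate 1), and 17 of these genes stand in another list too. Foxo1, the factor itself and a regulator of B cell development, had 430.3 and 321 CPM in BCR-ABL1, 206 and 169.9 in C-MYC and 444 and 286 in EV. BCR-ABL1 and EV overlapped above C-MYC, at 1.00 ± 0.23 (SE, edgeR BH-adjusted p = 0.0181). Pik3ip1, an inhibitor of PI3K, had 64.4 and 53.3 CPM in BCR-ABL1, 14.7 and 12.4 in C-MYC and 81.8 and 45.8 in EV. BCR-ABL1 lay between the EV libraries, at 2.12 ± 0.27 (SE, edgeR BH-adjusted p = 0.00261). Irs2, an adaptor of insulin and cytokine receptors, had 65.1 and 57.5 CPM in BCR-ABL1, 18.9 and 20.7 in C-MYC and 25.7 and 45.2 in EV, a difference of 1.63 ± 0.25 (SE, edgeR BH-adjusted p = 0.00468). Set against EV, BCR-ABL1 had 1 member called above and 6 below, whereas C-MYC had 0 above and 20 below. Of all genes, BCR-ABL1 had 5.08% above and 12.0% below EV, and C-MYC 18.6% above and 24.5% below, in contrasts that share the same EV libraries.

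NF-kB factors and the tumor necrosis factor (TNF) family share several members. Of 36 NF-kB subunits and targets, 12 were called higher in BCR-ABL1 against 2 in C-MYC, with a median of 0.38, and of 25 TNF family genes 8 and 2, with a median of 0.65. Without BCR-ABL1 replicate 1, these counts were 4 and 0, and 4 and 1. Among the NF-kB genes, 3 were called above EV and 17 below with BCR-ABL1, against 1 and 26 with C-MYC. For the TNF family, 5 were called above EV and 14 below with BCR-ABL1, against 1 and 19 with C-MYC. The ligands differed most between the oncogenes. Ltb, lymphotoxin beta, had 108 and 94.9 CPM in BCR-ABL1, 12.4 and 9.3 in C-MYC and 39.7 and 36.4 in EV. The order was BCR-ABL1, EV, C-MYC without overlap, at 3.23 ± 0.18 (SE, edgeR BH-adjusted p = 0.000161). Lta, lymphotoxin alpha, had 232 and 184 CPM in BCR-ABL1, 31.8 and 22.4 in C-MYC and 29 and 66.3 in EV. BCR-ABL1 was above all other libraries, at 2.94 ± 0.37 (SE, edgeR BH-adjusted p = 0.00247). Tnf itself had 49.8 and 40.9 CPM in BCR-ABL1, 9.47 and 7.77 in C-MYC and 14.9 and 20.1 in EV, a difference of 2.40 ± 0.21 (SE, edgeR BH-adjusted p = 0.000687), and Tnfsf8, the ligand of CD30, was higher by 3.64 ± 0.29 (SE, edgeR BH-adjusted p = 0.000548). Tnf, Lta and Ltb are neighbors in the genome, and as no strand setting of the counting is given, their counts may not be fully separate. The inhibitors Nfkbia, Nfkbie and Nfkbiz were higher in BCR-ABL1 by 0.58, 0.86 and 1.60, and the subunit Rel by 0.87. The receptors Ltbr and Tnfrsf1a were called the other way, at -2.14 and -1.73. Macrophages express both receptors, and their list moved in this direction, with a part that was not tested.

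The transforming growth factor beta (TGF-beta) pathway showed no common direction, with 4 of 33 members called toward each oncogene and a median of 0.09 (1 and 2 without BCR-ABL1 replicate 1). Lrrc32, the surface protein that anchors latent TGF-beta, had 106 and 74 CPM in BCR-ABL1, 4.0 and 3.46 in C-MYC and 45.7 and 25.5 in EV. BCR-ABL1 was highest and C-MYC lowest, at 4.59 ± 0.34 (SE, edgeR BH-adjusted p = 0.000424). Tgfbr2, the receptor chain that binds the ligand, was higher in BCR-ABL1 by 1.29 ± 0.24 (SE, edgeR BH-adjusted p = 0.00886). Tgfb2, a ligand, had 2.7 and 2.58 CPM in BCR-ABL1, 14.8 and 12.4 in C-MYC and 3.04 and 3.18 in EV. C-MYC stood above both other groups, at -2.36 ± 0.22 (SE, edgeR BH-adjusted p = 0.000955). The ligand Tgfb1 was not called, at 0.58 ± 0.18 (SE, edgeR BH-adjusted p = 0.0552).

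The pre-BCR consists of a heavy chain with the surrogate light chain (VPREB and IGLL1) and the signaling pair CD79A and CD79B. Of 34 genes of the receptor and its proximal signaling, 18 were called higher in BCR-ABL1 against 0 in C-MYC, at a median of 0.47 (9 and 0 without BCR-ABL1 replicate 1). Set against EV, BCR-ABL1 had 2 members called above and 8 below, at a median of -0.12. C-MYC had 0 above and 24 below, at a median of -0.76. Vpreb1 had 792 and 838 CPM in BCR-ABL1, 419 and 433 in C-MYC and 835 and 651 in EV. BCR-ABL1 overlapped EV, and C-MYC lay below, at 0.94 ± 0.13 (SE, edgeR BH-adjusted p = 0.00329). Cd79a had 1653 and 1424 CPM in BCR-ABL1, 812 and 603 in C-MYC and 1322 and 1209 in EV. C-MYC was again the lowest group, at 1.12 ± 0.15 (SE, edgeR BH-adjusted p = 0.00324). Vpreb2, Vpreb3 and Igll1 were called in this direction at 0.85, 1.14 and 0.61, although Vpreb1 and Vpreb2 are near-identical and may share reads. Among kinases, Fyn and Lck were higher in BCR-ABL1 by 1.27 ± 0.12 (SE, edgeR BH-adjusted p = 0.000955) and 1.15 ± 0.15 (SE, edgeR BH-adjusted p = 0.0028), whereas Btk was not called, at 0.10 ± 0.14 (SE, edgeR BH-adjusted p = 0.647). Bank1, a B cell scaffold protein, had 22 and 23.8 CPM in BCR-ABL1, 2.11 and 3.01 in C-MYC and 5.56 and 7.9 in EV. EV lay between the oncogenes, at 3.16 ± 0.27 (SE, edgeR BH-adjusted p = 0.000619). Cd79b was not called, at 0.47 ± 0.16 (SE, edgeR BH-adjusted p = 0.0699).

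Receptors that oppose these kinases, and phosphatases, were called in both directions. Of 37, 17 were higher in BCR-ABL1 against 7 in C-MYC, with a median of 0.46 (4 and 1 without BCR-ABL1 replicate 1). Ctla4, an inhibitory receptor best known from T cells, had 71.9 and 56.6 CPM in BCR-ABL1, 20.8 and 19.8 in C-MYC and 9.91 and 12.2 in EV. BCR-ABL1 was far above both other groups, at 1.66 ± 0.17 (SE, edgeR BH-adjusted p = 0.00129). Ctla4 was the only member of this list called above EV with either oncogene. Below EV, 17 members were called with BCR-ABL1 and 23 with C-MYC. Ptpn6, which encodes the phosphatase SHP-1, had 143 and 137 CPM in BCR-ABL1, 71.7 and 59 in C-MYC and 186 and 141 in EV, a difference of 1.09 ± 0.16 (SE, edgeR BH-adjusted p = 0.00398). Siglecg and Fcgr2b, inhibitory receptors of B cells, were higher in BCR-ABL1 by 1.16 and 1.28. Cd72, a pan-B cell inhibitory receptor, had 33.5 and 30.8 CPM in BCR-ABL1, 70.3 and 74.3 in C-MYC and 82.5 and 97.6 in EV. BCR-ABL1 was the low group here, at -1.17 ± 0.13 (SE, edgeR BH-adjusted p = 0.00163). Cd22 followed Cd72, at -0.91 ± 0.16 (SE, edgeR BH-adjusted p = 0.0069). The remaining 5 called toward C-MYC were Ptpn12 and 4 receptors that myeloid cells carry, Cd300a, Cd300lf, Lair1 and Lilrb4a, with log2 fold changes of -2.74, -2.23, -1.50 and -0.80. They were lowest in BCR-ABL1, as the macrophage list was, and the part of such cells was not tested.

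Interferon-stimulated genes had the highest median of the signaling lists. Of 47 tested, 23 were called higher in BCR-ABL1 against 1 in C-MYC, at a median of 0.89 (10 and 0 without BCR-ABL1 replicate 1). EV was above both: BCR-ABL1 had 33 members called below EV at a median of -1.13, C-MYC had 44 at a median of -2.28, and no member was called above EV in either. Irf7, the factor that amplifies interferon production, had 2.8 and 3.2 CPM in BCR-ABL1, 0.506 and 0.808 in C-MYC and 12.7 and 8.95 in EV. From EV over BCR-ABL1 to C-MYC the level was stepwise lower, and the difference was 2.18 ± 0.35 (SE, edgeR BH-adjusted p = 0.0056). Gbp7, a guanylate-binding protein of antimicrobial defense, had 627 and 588 CPM in BCR-ABL1, 191 and 197 in C-MYC and 619 and 443 in EV. C-MYC was the low group, at 1.64 ± 0.16 (SE, edgeR BH-adjusted p = 0.000955). Rtp4, which restrains interferon responses, had 5.97 and 5.48 CPM in BCR-ABL1, 0.781 and 0.718 in C-MYC and 16.1 and 8.32 in EV, at 2.92 ± 0.39 (SE, edgeR BH-adjusted p = 0.00308). Ddx58, which encodes the RNA sensor RIG-I, was higher in BCR-ABL1 by 1.37 ± 0.14 (SE, edgeR BH-adjusted p = 0.00132).

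Genes of p53 and of cell death also leaned toward BCR-ABL1. Of 33 p53 target genes, 13 were called higher in BCR-ABL1 against 0 in C-MYC, with a median of 0.54 (4 and 0 without BCR-ABL1 replicate 1). The list also holds Trp53 and Cdkn2a themselves, so not every member is a target of p53. Trp53inp1, a p53-induced regulator of autophagy and death, had 325 and 303 CPM in BCR-ABL1, 139 and 127 in C-MYC and 391 and 375 in EV. EV was highest and C-MYC lowest, at 1.24 ± 0.10 (SE, edgeR BH-adjusted p = 0.000592). Zmat3, a p53-induced RNA-binding protein, had 81.6 and 75.1 CPM in BCR-ABL1, 32.5 and 29.9 in C-MYC and 34.1 and 48 in EV, a difference of 1.33 ± 0.18 (SE, edgeR BH-adjusted p = 0.00299). Cdkn2a, the locus of p16 and p19ARF, had 60.3 and 59.7 CPM in BCR-ABL1, 22.7 and 23.2 in C-MYC and 47.2 and 37.9 in EV. BCR-ABL1 was highest and C-MYC lowest, at 1.39 ± 0.14 (SE, edgeR BH-adjusted p = 0.0013). Of the defining targets, Ccng1 was called higher in BCR-ABL1, at 0.59 ± 0.13 (SE, edgeR BH-adjusted p = 0.0151). Cdkn1a and Mdm2 were not called, at 0.54 ± 0.19 (SE, edgeR BH-adjusted p = 0.0715) and 0.26 ± 0.11 (SE, edgeR BH-adjusted p = 0.116).

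Of 17 BCL2 family genes, 5 were called higher in BCR-ABL1 against 1 in C-MYC, at a median of 0.26 (2 and 0 without BCR-ABL1 replicate 1). Guardians and killers were among the former alike. Bcl2, which protects from death, had 78.5 and 101 CPM in BCR-ABL1, 28.1 and 30.4 in C-MYC and 64.6 and 64.6 in EV. The order was BCR-ABL1, EV, C-MYC, at 1.62 ± 0.15 (SE, edgeR BH-adjusted p = 0.000899). Bcl2l11, which encodes the death protein BIM, had 224 and 183 CPM in BCR-ABL1, 92.3 and 84.2 in C-MYC and 147 and 107 in EV. The order was the same, at 1.21 ± 0.17 (SE, edgeR BH-adjusted p = 0.00384). Bmf, another death protein, had 42.9 and 34 CPM in BCR-ABL1, 10.8 and 8.98 in C-MYC and 132 and 58.4 in EV. EV was highest here, and BCR-ABL1 exceeded C-MYC by 1.96 ± 0.36 (SE, edgeR BH-adjusted p = 0.00855). Bid was the member called toward C-MYC, at -0.68 ± 0.19 (SE, edgeR BH-adjusted p = 0.0352).

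**Figure D3:**
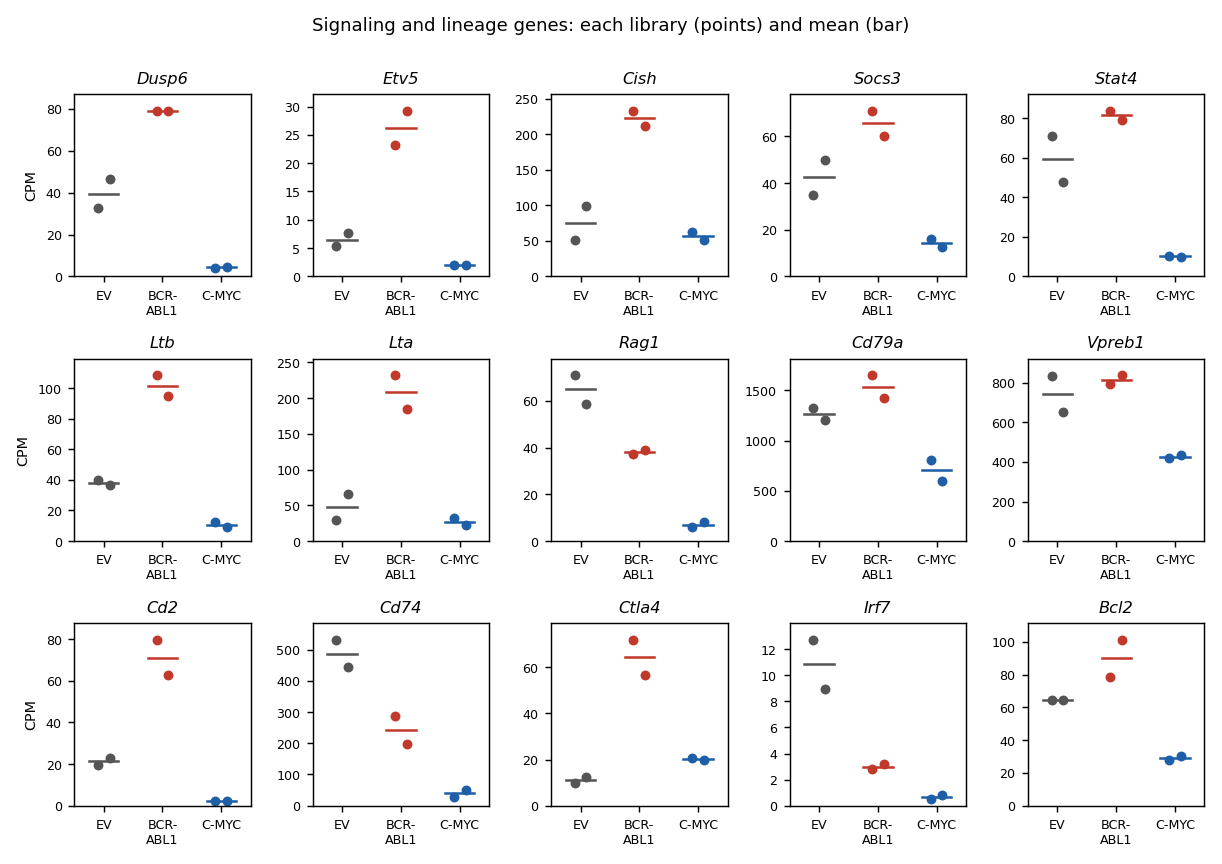
CPM of 15 signaling and lineage genes in each of the 6 libraries (points, 2 per group) with the group mean as a bar, each panel on its own linear axis from 0. In every panel both BCR-ABL1 points lie above both C-MYC points, while EV lies above BCR-ABL1 for Rag1, Cd74 and Irf7, between the groups for Dusp6, Etv5, Ltb and Bcl2, and below C-MYC for Ctla4.

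Metabolic and growth genes formed the other side of the comparison. Glycolysis turns glucose into pyruvate and lactate. Of 26 of its genes, 13 were called higher in C-MYC and 1 in BCR-ABL1, with a median of -0.48 (4 and 0 without BCR-ABL1 replicate 1). Hk2, the hexokinase that traps glucose in the cell, had 26.8 and 41.4 CPM in BCR-ABL1, 84 and 109.5 in C-MYC and 24.5 and 44 in EV. C-MYC lay above the other 4 libraries, which interleaved, at -1.50 ± 0.31 (SE, edgeR BH-adjusted p = 0.0124). Ldha, which makes lactate, had 1244 and 1296 CPM in BCR-ABL1, 3053 and 2504 in C-MYC and 1333 and 1214 in EV. C-MYC was above the other 4 libraries, which overlapped, at -1.13 ± 0.12 (SE, edgeR BH-adjusted p = 0.00128). Tpi1, Pgam1 and Pkm, which act between these enzymes, were higher in C-MYC with log2 fold changes of -0.96 ± 0.13 (SE, edgeR BH-adjusted p = 0.00339), -0.95 ± 0.11 (SE, edgeR BH-adjusted p = 0.00172) and -0.77 ± 0.14 (SE, edgeR BH-adjusted p = 0.00752). The glucose carrier Slc2a1 was not called, at -0.12 ± 0.13 (SE, edgeR BH-adjusted p = 0.558). Aldoc, a minor aldolase, was the member called toward BCR-ABL1, at 1.59 ± 0.34 (SE, edgeR BH-adjusted p = 0.0151). Hk3 and the lactate carrier Slc16a3, which myeloid cells express strongly, were called toward C-MYC at -1.76 and -1.91, and they were lowest in BCR-ABL1, as the macrophage list was. The part of such cells was not tested. Set against EV, BCR-ABL1 had 3 members called above and 3 below, and C-MYC 13 and 3.

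The pentose phosphate pathway branches from glycolysis to make NADPH and ribose. Of 8 genes, 3 were called higher in C-MYC and 0 in BCR-ABL1, at a median of -0.28. G6pdx, which catalyzes its entry step, had 51.9 and 51.1 CPM in BCR-ABL1, 93.3 and 92.5 in C-MYC and 58.5 and 57.9 in EV. C-MYC stood alone above the other groups, at -0.85 ± 0.11 (SE, edgeR BH-adjusted p = 0.00258). Pgd and Rpia were the other called members, at -0.76 and -0.60. The transketolase Tkt was not called, at -0.33 ± 0.13 (SE, edgeR BH-adjusted p = 0.0962). Only 1 of the 3 was called without BCR-ABL1 replicate 1.

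Pyruvate oxidation and the tricarboxylic acid (TCA) cycle had 11 of 35 genes called higher in C-MYC and 1 in BCR-ABL1, at a median of -0.31. Dlat, of the pyruvate dehydrogenase complex, had 70.4 and 73 CPM in BCR-ABL1, 111 and 121 in C-MYC and 49.3 and 60.4 in EV. The order was C-MYC, BCR-ABL1, EV, at -0.69 ± 0.13 (SE, edgeR BH-adjusted p = 0.00998). Suclg2, a subunit of the cycle's succinyl-CoA ligase, had 44.4 and 50.8 CPM in BCR-ABL1, 82 and 88.3 in C-MYC and 30.2 and 33.4 in EV, at -0.84 ± 0.13 (SE, edgeR BH-adjusted p = 0.00487). Pcx, the enzyme that refills the cycle from pyruvate, was called toward BCR-ABL1 at 0.83 ± 0.17 (SE, edgeR BH-adjusted p = 0.0134). The subunits of oxidative phosphorylation differed little: 11 of 76 were called higher in C-MYC and 0 in BCR-ABL1, a share close to that of all genes, and the median was -0.14. Cyc1, of complex III, had 159 and 167 CPM in BCR-ABL1, 239 and 232 in C-MYC and 142 and 133 in EV, at -0.53 ± 0.099 (SE, edgeR BH-adjusted p = 0.00873). Its partner cytochrome c, Cycs, was higher in C-MYC by -0.63 ± 0.19 (SE, edgeR BH-adjusted p = 0.0464). No member of either list was called without BCR-ABL1 replicate 1.

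Nucleotide synthesis followed C-MYC. Of 34 genes, 20 were called higher in C-MYC and 1 in BCR-ABL1, at a median of -0.43 (3 and 0 without BCR-ABL1 replicate 1). In purine synthesis, Ppat, the enzyme that commits to the pathway, had 135 and 155 CPM in BCR-ABL1, 259.8 and 262 in C-MYC and 95 and 103 in EV. C-MYC was highest, BCR-ABL1 intermediate and EV lowest, at -0.85 ± 0.11 (SE, edgeR BH-adjusted p = 0.0029). Gart, which catalyzes several later steps, had 211 and 252 CPM in BCR-ABL1, 426 and 433 in C-MYC and 139 and 177 in EV. The order was the same, at -0.89 ± 0.14 (SE, edgeR BH-adjusted p = 0.00548). In pyrimidine synthesis, Cad, the enzyme of the opening steps, had 285 and 322 CPM in BCR-ABL1, 461 and 524 in C-MYC and 175 and 242 in EV, at -0.70 ± 0.16 (SE, edgeR BH-adjusted p = 0.0196), and Umps and Ctps were higher in C-MYC by -0.78 and -0.80. Ak4, a mitochondrial adenylate kinase, had 1.8 and 2.49 CPM in BCR-ABL1, 19.2 and 13.7 in C-MYC and 1.54 and 2.42 in EV. Only C-MYC rose above a few CPM, at -2.93 ± 0.32 (SE, edgeR BH-adjusted p = 0.00147). Dck, which salvages deoxycytidine, went the other way with 449.5 and 448 CPM in BCR-ABL1, 298 and 319 in C-MYC and 340.0 and 339.9 in EV. BCR-ABL1 was above EV and C-MYC below, at 0.54 ± 0.092 (SE, edgeR BH-adjusted p = 0.00652).

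Serine, glycine and the folate cycle supply one-carbon units to these pathways. Of 24 genes, 13 were called higher in C-MYC and 1 in BCR-ABL1, at a median of -0.50 (3 and 0 without BCR-ABL1 replicate 1). Shmt2, the mitochondrial enzyme that splits serine, had 296 and 317 CPM in BCR-ABL1, 578 and 478 in C-MYC and 214 and 261 in EV. The order was C-MYC, BCR-ABL1, EV, at -0.78 ± 0.14 (SE, edgeR BH-adjusted p = 0.00716). Slc19a1, which takes up folate, had 43 and 49.2 CPM in BCR-ABL1, 106 and 89 in C-MYC and 28.7 and 28.5 in EV, at -1.08 ± 0.14 (SE, edgeR BH-adjusted p = 0.00258). Slc25a32, which carries folate into mitochondria, and Mthfd2, which acts there, were higher in C-MYC by -1.04 ± 0.14 (SE, edgeR BH-adjusted p = 0.00299) and -0.80 ± 0.14 (SE, edgeR BH-adjusted p = 0.00755). Gldc, of the glycine cleavage system, had 1160.1 and 1163 CPM in BCR-ABL1, 909 and 827 in C-MYC and 616 and 600.1 in EV. It was above EV in both oncogene groups and highest in BCR-ABL1, at 0.42 ± 0.092 (SE, edgeR BH-adjusted p = 0.0159).

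Amino acid supply also followed C-MYC. Of 29 genes, 15 were called higher in C-MYC and 2 in BCR-ABL1, with a median of -0.49 (4 and 0 without BCR-ABL1 replicate 1). Asns, which makes asparagine, had 19.5 and 20.9 CPM in BCR-ABL1, 83.4 and 69.5 in C-MYC and 17.2 and 19.8 in EV. BCR-ABL1 and EV overlapped, and C-MYC was above them, at -1.92 ± 0.15 (SE, edgeR BH-adjusted p = 0.000542). Slc7a5, the carrier of large neutral amino acids, had 289 and 287 CPM in BCR-ABL1, 530.5 and 414 in C-MYC and 212 and 197 in EV, at -0.71 ± 0.13 (SE, edgeR BH-adjusted p = 0.00841), and its partner Slc3a2 was higher by -0.61. Got1 and Pycr1, which act in aspartate and proline synthesis, were higher in C-MYC by -0.93 and -1.58. Gls2, a glutaminase, had 0.427 and 0.789 CPM in BCR-ABL1, 4.78 and 4.58 in C-MYC and 0.28 and 0.627 in EV. It was low throughout and highest in C-MYC, at -2.92 ± 0.43 (SE, edgeR BH-adjusted p = 0.00424). The glutamine carrier Slc1a5 was not called, at -0.20 ± 0.093 (SE, edgeR BH-adjusted p = 0.159). Toward BCR-ABL1 the carriers Slc38a2 and Slc43a1 were called, at 0.33 and 0.49.

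Polyamines are made from ornithine and serve, among other uses, to modify the translation factor EIF5A. Of 15 genes, 7 were called higher in C-MYC and 1 in BCR-ABL1, at a median of -0.52 (3 and 0 without BCR-ABL1 replicate 1). Odc1, ornithine decarboxylase, had 408 and 438 CPM in BCR-ABL1, 720.5 and 742 in C-MYC and 365 and 345 in EV. The C-MYC libraries were close together and above all others, at -0.79 ± 0.094 (SE, edgeR BH-adjusted p = 0.00191). Srm, spermidine synthase, had 155 and 181 CPM in BCR-ABL1, 468 and 387 in C-MYC and 102 and 124 in EV. The order was C-MYC, BCR-ABL1, EV, at -1.35 ± 0.15 (SE, edgeR BH-adjusted p = 0.00151). Sms, spermine synthase, followed at -0.59 ± 0.11 (SE, edgeR BH-adjusted p = 0.00821), and Eif5a at -0.52 ± 0.11 (SE, edgeR BH-adjusted p = 0.016). Oaz2, an antizyme that inhibits Odc1, was the member called toward BCR-ABL1, at 0.49 ± 0.13 (SE, edgeR BH-adjusted p = 0.0305). Arg1, arginase, which is also a macrophage gene, had 0.379 and 0.291 CPM in BCR-ABL1, 5.61 and 7.86 in C-MYC and 17.1 and 5.81 in EV, at -4.32 ± 0.63 (SE, edgeR BH-adjusted p = 0.00404), in the same direction as the macrophage list. The part of macrophages in the Arg1 difference was not tested.

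MYC with MAX is known to bind CACGTG, and the start regions of 3 genes higher in C-MYC are shown as examples that hold it, given here in capitals: Ldha of glycolysis, Sms of polyamine synthesis and Nop2 of ribosome biogenesis. CACGTG reads the same on both strands and occurs in 2349 of the 32851 RefSeq windows (7.15%). The Ldha window shown, 1 of 2 of that gene, lies at chr7:46845554-46845853 on the plus strand with matches at -145 and -48 from the start site. The Nop2 window lies at chr6:125131633-125131932 on the plus strand with a match at -60, and the Sms window shown, 1 of 2, at chrX:157492238-157492537 on the minus strand with a match at -196.
Ldha: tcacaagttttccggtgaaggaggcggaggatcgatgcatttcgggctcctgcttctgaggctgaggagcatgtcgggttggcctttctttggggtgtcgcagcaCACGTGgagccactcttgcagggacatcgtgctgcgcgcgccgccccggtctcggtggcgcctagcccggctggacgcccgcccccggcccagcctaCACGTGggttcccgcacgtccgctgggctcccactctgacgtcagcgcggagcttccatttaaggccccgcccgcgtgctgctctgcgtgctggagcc
Nop2: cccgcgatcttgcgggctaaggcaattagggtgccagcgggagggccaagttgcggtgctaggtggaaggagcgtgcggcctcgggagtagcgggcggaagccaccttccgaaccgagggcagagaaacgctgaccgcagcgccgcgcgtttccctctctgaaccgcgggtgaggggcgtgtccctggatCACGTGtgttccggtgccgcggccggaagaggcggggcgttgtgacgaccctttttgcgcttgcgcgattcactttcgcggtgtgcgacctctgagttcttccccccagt
Sms: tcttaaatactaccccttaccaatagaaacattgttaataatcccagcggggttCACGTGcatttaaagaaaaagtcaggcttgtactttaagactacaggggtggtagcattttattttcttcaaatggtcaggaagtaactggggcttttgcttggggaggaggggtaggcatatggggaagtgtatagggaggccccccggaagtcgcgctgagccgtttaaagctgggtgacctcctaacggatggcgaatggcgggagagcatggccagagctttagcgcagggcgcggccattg
The windows of Odc1, Ncl, Nop56, Pkm and Hk2 did not hold these letters, and there was no entry for Fbl. A window was found for 79.99% of the genes tested, under the 80% needed to compare groups of genes, so a comparison of motif shares between genes higher in C-MYC and other genes is void and none is given.

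Cholesterol synthesis hardly separated the oncogenes. Of 30 cholesterol genes, 1 was called higher in C-MYC and 0 in BCR-ABL1, at a median of 0.04. The called gene was Abca1, an exporter of cholesterol, with 5.93 and 4.82 CPM in BCR-ABL1, 10.8 and 14.3 in C-MYC and 21.6 and 28.7 in EV, at -1.22 ± 0.24 (SE, edgeR BH-adjusted p = 0.00998). Its EV libraries were the highest, and macrophages express this gene, with a part that was not tested. Hmgcs1, an enzyme of the early pathway, was not called, at -0.12 ± 0.11 (SE, edgeR BH-adjusted p = 0.477). Of 32 fatty acid genes, 6 were called higher in C-MYC and 2 in BCR-ABL1, at a median of -0.15. Fasn, fatty acid synthase, had 381 and 394 CPM in BCR-ABL1, 539 and 584 in C-MYC and 276 and 377 in EV, with C-MYC above BCR-ABL1 by a log2 value of -0.54 ± 0.15 (SE, edgeR BH-adjusted p = 0.0357). Acsl1, which activates fatty acids, had 230.0 and 179.7 CPM in BCR-ABL1, 137 and 114 in C-MYC and 117 and 123 in EV. BCR-ABL1 was above both other groups, at 0.71 ± 0.15 (SE, edgeR BH-adjusted p = 0.0142). With BCR-ABL1 replicate 1 left out, no member of either lipid list was called.

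Ribosome biogenesis had the largest share of called members among the 52 lists. Of 78 tested genes of nucleolar processing, assembly and RNA polymerase I, 68 were called higher in C-MYC and 0 in BCR-ABL1, at a median of -0.72 and a range of -1.40 to 0.12, against 11.5% of all genes called in this direction. In the fit without BCR-ABL1 replicate 1, 17 were called toward C-MYC and 0 toward BCR-ABL1. Npm1, nucleophosmin, had 2261 and 2415 CPM in BCR-ABL1, 4735 and 4615 in C-MYC and 1428 and 1693 in EV. C-MYC was highest and EV lowest, without overlap of the groups, at -1.00 ± 0.11 (SE, edgeR BH-adjusted p = 0.00137). Ncl, nucleolin, had 2999 and 3140.1 CPM in BCR-ABL1, 5181 and 5219 in C-MYC and 1902 and 2319 in EV. The order was the same, at -0.76 ± 0.11 (SE, edgeR BH-adjusted p = 0.00387). Polr1b, a subunit of RNA polymerase I, had 46.8 and 59 CPM in BCR-ABL1, 139.9 and 139 in C-MYC and 44.7 and 58.4 in EV. BCR-ABL1 and EV interleaved, at -1.40 ± 0.17 (SE, edgeR BH-adjusted p = 0.00197). Gnl3, nucleostemin, and Nop2, which methylates ribosomal RNA, were higher in C-MYC by -1.16 ± 0.099 (SE, edgeR BH-adjusted p = 0.000619) and -1.03 ± 0.12 (SE, edgeR BH-adjusted p = 0.00199). Over EV, BCR-ABL1 had 13 members called higher at a median of 0.29, and C-MYC had 73 at a median of 0.99, with none lower in either, while the median of all genes over EV was 0.0010 and -0.076.

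The machinery of translation differed by smaller steps. Of 80 cytosolic ribosomal protein genes, 10 were called higher in C-MYC and 0 in BCR-ABL1, which is near the share of all genes, at a median of -0.23. Many of these genes have processed pseudogenes with which they may share reads. Rps2, a small-subunit protein, had 2195 and 2431 CPM in BCR-ABL1, 3011 and 2911 in C-MYC and 1669 and 1610.2 in EV. C-MYC was highest and EV lowest, and the difference was -0.36 ± 0.091 (SE, edgeR BH-adjusted p = 0.028). Their summed level was 76469 and 77155 CPM in BCR-ABL1, 91979 and 86859 in C-MYC and 64272 and 61671 in EV. Of 75 mitochondrial ribosomal protein genes, 29 were called higher in C-MYC and 0 in BCR-ABL1, at a median of -0.38. Mrpl12 had 118 and 128 CPM in BCR-ABL1, 224 and 196 in C-MYC and 84.3 and 99 in EV, at -0.77 ± 0.13 (SE, edgeR BH-adjusted p = 0.0058). In neither list was a member called without BCR-ABL1 replicate 1.

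Of 23 aminoacyl-tRNA synthetase genes, which charge transfer RNAs, 18 were called higher in C-MYC and 0 in BCR-ABL1, at a median of -0.58. Eprs, for glutamate and proline, had 292 and 320.0 CPM in BCR-ABL1, 449 and 485 in C-MYC and 204 and 258 in EV. C-MYC lay above BCR-ABL1, at -0.61 ± 0.13 (SE, edgeR BH-adjusted p = 0.015). Iars, for isoleucine, was higher by -0.72 ± 0.16 (SE, edgeR BH-adjusted p = 0.0178), and Vars, for valine, was not called, at -0.11 ± 0.098 (SE, edgeR BH-adjusted p = 0.476). Of 39 initiation factor genes, 23 were called higher in C-MYC and 0 in BCR-ABL1, at a median of -0.39. Eif4e, which binds the messenger RNA cap, had 183 and 186 CPM in BCR-ABL1, 279 and 269 in C-MYC and 141 and 138 in EV. Again C-MYC was highest and EV lowest, at -0.57 ± 0.094 (SE, edgeR BH-adjusted p = 0.006). The scaffold Eif4g1 and the helicase Eif4a1 were higher by -0.48 and -0.50. Leaving out BCR-ABL1 replicate 1 left 0 synthetase genes and 1 initiation factor gene called.

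**Figure D4:**
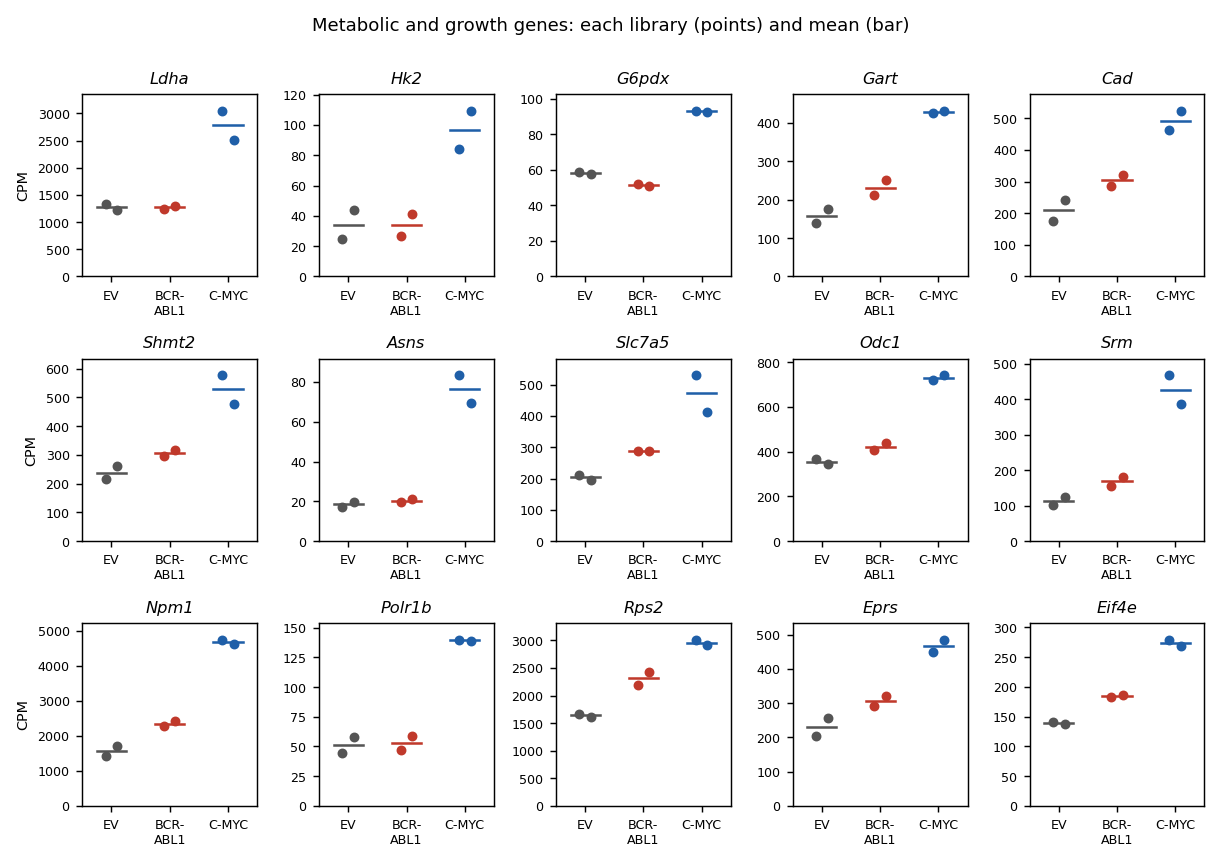
CPM of 15 metabolic and growth genes in each of the 6 libraries (points, 2 per group) with the group mean as a bar, each panel on its own linear axis from 0. In every panel both C-MYC points lie above the other 4, and the BCR-ABL1 points lie close to EV for Ldha, Hk2, Asns and Polr1b and between EV and C-MYC for Npm1, Srm, Rps2 and Eif4e.

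Lysosomal genes were called about equally in both directions, with 9 of 47 higher in BCR-ABL1, 8 higher in C-MYC and a median of 0.02 (0 and 2 without BCR-ABL1 replicate 1). Those toward BCR-ABL1 differed by 0.41 to 0.62 on the log2 scale (Atp6v0d1 and Smpd1). Tfeb, the factor that turns on lysosomal genes, had 87.9 and 78.8 CPM in BCR-ABL1, 62.9 and 49.1 in C-MYC and 103 and 86.4 in EV, at 0.57 ± 0.16 (SE, edgeR BH-adjusted p = 0.0362). Lamp2, a membrane protein of the lysosome, was higher by 0.50 ± 0.12 (SE, edgeR BH-adjusted p = 0.0213). Those toward C-MYC included the proteases and membrane proteins that macrophages hold in quantity. Ctsl, cathepsin L, had 18.8 and 21.7 CPM in BCR-ABL1, 62.7 and 88.5 in C-MYC and 42.3 and 51.6 in EV. C-MYC lay above EV and EV above BCR-ABL1, at -1.90 ± 0.20 (SE, edgeR BH-adjusted p = 0.00132). Cd68 had 13.8 and 15.6 CPM in BCR-ABL1, 37.8 and 49 in C-MYC and 34.8 and 61 in EV, at -1.56 ± 0.27 (SE, edgeR BH-adjusted p = 0.00703), and is itself on the macrophage list, whose summed levels moved in this direction, with a part that was not tested.

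Cell division genes separated the oncogenes little. Of 45 genes of DNA replication, 2 were called higher in C-MYC and 0 in BCR-ABL1, at a median of -0.14, and Mcm2 and Pcna were not called, at -0.09 ± 0.099 (SE, edgeR BH-adjusted p = 0.554) and -0.11 ± 0.094 (SE, edgeR BH-adjusted p = 0.454). Of 40 mitosis genes, 3 were called higher in BCR-ABL1 against 1 in C-MYC, at a median of 0.02. Foxm1, which turns on mitotic genes, had 175 and 169 CPM in BCR-ABL1, 132 and 108 in C-MYC and 168 and 176 in EV. C-MYC was the low group, at 0.52 ± 0.12 (SE, edgeR BH-adjusted p = 0.0211). The called share of both lists lay below the 23.4% of all genes, and 0 of them were called without BCR-ABL1 replicate 1.

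Regulators of the step from G1 to S phase differed more. Of 25, 7 were called higher in BCR-ABL1 against 2 in C-MYC, at a median of 0.12 (2 and 0 without BCR-ABL1 replicate 1). Ccnd3, the D cyclin of pre-B cells, had 1005 and 1126 CPM in BCR-ABL1, 708 and 586 in C-MYC and 1051 and 1148 in EV. BCR-ABL1 and EV overlapped, and C-MYC lay below, at 0.72 ± 0.12 (SE, edgeR BH-adjusted p = 0.00647). The inhibitors Cdkn1b, Cdkn2c and Cdkn2d were higher in BCR-ABL1 by 0.88, 0.82 and 0.84, as was Cdkn2a above. The kinase Cdk6 and the phosphatase Cdc25a were higher in C-MYC by -0.69 ± 0.12 (SE, edgeR BH-adjusted p = 0.00713) and -0.54 ± 0.11 (SE, edgeR BH-adjusted p = 0.0105). Ccnd2 and Cdk4 were not called, at 0.40 ± 0.13 (SE, edgeR BH-adjusted p = 0.0547) and -0.28 ± 0.10 (SE, edgeR BH-adjusted p = 0.0824).

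Of 23 KLF factors and antiproliferative genes, 6 were called higher in BCR-ABL1 against 1 in C-MYC, at a median of 0.22 (3 and 0 without BCR-ABL1 replicate 1). Slfn2, a schlafen protein that keeps lymphocytes at rest, had 300.3 and 269 CPM in BCR-ABL1, 56.6 and 49.4 in C-MYC and 188 and 239 in EV. C-MYC was far below EV and BCR-ABL1, at 2.43 ± 0.15 (SE, edgeR BH-adjusted p = 0.000302). Btg1, an antiproliferative factor whose gene is deleted in some B lineage leukemias, had 288 and 272 CPM in BCR-ABL1, 93.8 and 89.5 in C-MYC and 604 and 468 in EV. EV was highest, then BCR-ABL1, then C-MYC, at 1.61 ± 0.14 (SE, edgeR BH-adjusted p = 0.000619). The MAX partners Mxd3 and Mxd4, which compete with MYC, were higher in BCR-ABL1 by 0.79 and 0.79, whereas their relative Mxi1 was higher in C-MYC, at -0.66 ± 0.13 (SE, edgeR BH-adjusted p = 0.0122).

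Lineage genes were taken up last. Of 37 B lineage transcription factors, 7 were called higher in BCR-ABL1 against 1 in C-MYC, at a median of 0.29 (1 and 0 without BCR-ABL1 replicate 1). Ebf1, which with PAX5 sets up the B lineage, had 619.7 and 564 CPM in BCR-ABL1, 356 and 288 in C-MYC and 527 and 575 in EV. EV lay near BCR-ABL1, and C-MYC below both, at 0.88 ± 0.13 (SE, edgeR BH-adjusted p = 0.0038). Pax5 was expressed in every library, with 149 and 130.1 CPM in BCR-ABL1, 105 and 91.6 in C-MYC and 136 and 209.8 in EV. It was not called, at 0.51 ± 0.20 (SE, edgeR BH-adjusted p = 0.103). Erg, Runx1 and Spib were called toward BCR-ABL1, at 0.67, 0.53 and 0.52. Ikzf1 and Irf4 were not called, at 0.37 ± 0.15 (SE, edgeR BH-adjusted p = 0.112) and 0.44 ± 0.25 (SE, edgeR BH-adjusted p = 0.248). Id2, which blocks B cell development and is also a myeloid gene, was the member called toward C-MYC, at -1.11 ± 0.31 (SE, edgeR BH-adjusted p = 0.0378).

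Surface and stage markers separated the groups in larger steps. Of 33, 19 were called higher in BCR-ABL1 against 4 in C-MYC, at a median of 0.69 (7 and 3 without BCR-ABL1 replicate 1). Cd2, an adhesion molecule that appears on B cell precursors as they pass the pre-BCR stage, had 79.7 and 62.6 CPM in BCR-ABL1, 2.34 and 2.42 in C-MYC and 19.7 and 23.2 in EV. EV lay between the oncogenes without overlap, at 4.90 ± 0.20 (SE, edgeR BH-adjusted p = 9.11e-05). Cd38, an ectoenzyme, had 24.9 and 22.4 CPM in BCR-ABL1, 3.95 and 4.09 in C-MYC and 21.5 and 32.7 in EV, at 2.55 ± 0.24 (SE, edgeR BH-adjusted p = 0.00087). Ly6d and Cd37 were higher in BCR-ABL1 by 1.27 and 1.12. Toward C-MYC, Cd44, a receptor for hyaluronan, had 61.9 and 66.3 CPM in BCR-ABL1, 161 and 149 in C-MYC and 154 and 109 in EV. BCR-ABL1 was the low group, at -1.27 ± 0.17 (SE, edgeR BH-adjusted p = 0.00288). Cd9, a tetraspanin, had 16.6 and 16.5 CPM in BCR-ABL1, 48.4 and 53 in C-MYC and 64.4 and 45.9 in EV, at -1.61 ± 0.18 (SE, edgeR BH-adjusted p = 0.00156). Set against EV, BCR-ABL1 had 2 members called above and 16 below, and C-MYC 0 and 24.

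Genes of the late pre-B stage, all 20 of which stand in another list too, had 9 of 20 called higher in BCR-ABL1 against 2 in C-MYC, at a median of 0.48 (5 and 1 without BCR-ABL1 replicate 1). Rag1, of the recombinase that joins antigen receptor segments, had 37.3 and 38.9 CPM in BCR-ABL1, 5.98 and 8.22 in C-MYC and 71.1 and 58.9 in EV. EV was highest and C-MYC lowest, without overlap of the groups, at 2.42 ± 0.19 (SE, edgeR BH-adjusted p = 0.000521). Rag2, its partner, had 13.1 and 11.3 CPM in BCR-ABL1, 3.22 and 3.95 in C-MYC and 14 and 11.2 in EV. C-MYC was below the other 4 libraries, at 1.76 ± 0.23 (SE, edgeR BH-adjusted p = 0.00258). Il2ra, the CD25 chain that marks small pre-B cells, had 56.9 and 52.2 CPM in BCR-ABL1, 22.2 and 20.5 in C-MYC and 110.0 and 92.4 in EV. EV was highest, and the difference was 1.35 ± 0.14 (SE, edgeR BH-adjusted p = 0.00122). Ms4a1, which encodes CD20, was low in all libraries and higher in BCR-ABL1 by 1.96 ± 0.31 (SE, edgeR BH-adjusted p = 0.00508).

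Antigen presentation genes were mostly at or below EV. Of 16 MHC class II genes, 6 were called higher in BCR-ABL1 against 2 in C-MYC, at a median of 0.26 (4 and 0 without BCR-ABL1 replicate 1). Below EV were 9 of them with BCR-ABL1 and 14 with C-MYC, and none was above. Cd74, the invariant chain, had 287 and 199 CPM in BCR-ABL1, 29.3 and 49.8 in C-MYC and 531 and 443 in EV. EV was highest and C-MYC lowest, at 2.62 ± 0.27 (SE, edgeR BH-adjusted p = 0.0013). H2-DMa and H2-DMb2, chains of the peptide exchanger, and H2-Ob were higher in BCR-ABL1 by 1.78, 4.10 and 1.21. The presenting chains went the other way at low levels: H2-Aa had 2.8 and 2.41 CPM in BCR-ABL1, 3.91 and 10.8 in C-MYC and 177 and 142 in EV. Both oncogenes were far below EV, and BCR-ABL1 was below C-MYC by -1.50 ± 0.44 (SE, edgeR BH-adjusted p = 0.0424). H2-Eb1 followed at -1.77 ± 0.36 (SE, edgeR BH-adjusted p = 0.0128). Macrophages carry these chains, and their part was not tested. Ciita, which turns these genes on, was not called, at -1.33 ± 0.52 (SE, edgeR BH-adjusted p = 0.105). H2 genes are similar in sequence and their counts are uncertain. Of 21 class I genes, 4 were called higher in BCR-ABL1 against 0 in C-MYC, at a median of 0.27, with 0 called without BCR-ABL1 replicate 1. B2m and H2-K1 were not called, at 0.58 ± 0.21 (SE, edgeR BH-adjusted p = 0.0805) and 0.50 ± 0.16 (SE, edgeR BH-adjusted p = 0.0584).

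Homing and adhesion receptors were called in both directions, with 11 of 39 higher in BCR-ABL1 against 6 in C-MYC, at a median of 0.18 (4 and 2 without BCR-ABL1 replicate 1). Itgal, the alpha chain of LFA-1, had 85 and 72.3 CPM in BCR-ABL1, 12.7 and 17.1 in C-MYC and 97.9 and 83 in EV. BCR-ABL1 and EV overlapped, and C-MYC lay far below, at 2.40 ± 0.18 (SE, edgeR BH-adjusted p = 0.000475). S1pr1, the receptor that guides lymphocytes out of tissue, had 54.1 and 37.3 CPM in BCR-ABL1, 16.7 and 15.9 in C-MYC and 104 and 67.3 in EV. EV was highest and C-MYC lowest, at 1.49 ± 0.25 (SE, edgeR BH-adjusted p = 0.00628). Cxcr4, which holds precursors in the marrow, was not called, at 0.33 ± 0.18 (SE, edgeR BH-adjusted p = 0.223). Itgb1, an integrin chain found on most cells, was called toward C-MYC at -0.35 ± 0.096 (SE, edgeR BH-adjusted p = 0.0365).

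Of 15 germinal center and plasma cell genes, 2 were called higher in BCR-ABL1 against 3 in C-MYC, at a median of -0.02 (0 and 1 without BCR-ABL1 replicate 1). Sdc1, the syndecan that marks plasma cells and is also found on B cell precursors, had 12.7 and 15.3 CPM in BCR-ABL1, 58.1 and 53.9 in C-MYC and 20.4 and 20.1 in EV. C-MYC stood above the other groups, at -2.00 ± 0.15 (SE, edgeR BH-adjusted p = 0.000457). Slamf7 was higher in C-MYC by -1.00 ± 0.17 (SE, edgeR BH-adjusted p = 0.00707), and Jchain, the joining chain of secreted antibodies, was higher in BCR-ABL1 by 2.27 ± 0.56 (SE, edgeR BH-adjusted p = 0.0239). Prdm1, the factor of plasma cells, was not called, at -0.83 ± 0.33 (SE, edgeR BH-adjusted p = 0.104).

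Genes of other cell types that such cultures can hold were summed per library. The sums of both oncogenes lay below EV for neutrophil, myeloid, T and NK, dendritic, mast cell and stromal genes, while those of erythroid genes overlapped EV. Of 18 macrophage genes, 14 were called higher in C-MYC and 0 in BCR-ABL1, at a median of -1.89 (1 and 0 without BCR-ABL1 replicate 1), with summed levels given above for Ctsk. The EV and C-MYC ranges of that sum overlap, BCR-ABL1 lies below both, and none of the defining markers Adgre1, Csf1r and C1qa was at 0 in any library. Adgre1, which encodes F4/80, had 3.13 and 5.61 CPM in BCR-ABL1, 9.42 and 22.9 in C-MYC and 27.1 and 59.9 in EV. The C-MYC libraries differed from each other, and both were above BCR-ABL1 and below EV, at -1.88 ± 0.53 (SE, edgeR BH-adjusted p = 0.0391). Csf1r, the receptor for macrophage growth factor, had 10.6 and 12 CPM in BCR-ABL1, 29.9 and 54.9 in C-MYC and 82.5 and 145 in EV, at -1.90 ± 0.35 (SE, edgeR BH-adjusted p = 0.00817). C1qa had 3.27 and 3.66 CPM in BCR-ABL1, 4.46 and 6.38 in C-MYC and 51.6 and 72.8 in EV. It was far below EV with both oncogenes and was not called, at -0.64 ± 0.26 (SE, edgeR BH-adjusted p = 0.111). Against EV, BCR-ABL1 had 0 macrophage genes called above and 15 below, at a median of -2.31. C-MYC had 2 above and 7 below, at a median of -0.51. Of 23 myeloid factors and receptors, 11 were called higher in C-MYC, and 1, Csf2rb, toward BCR-ABL1 (4 and 1 without BCR-ABL1 replicate 1). Cebpa and Cebpb were higher in C-MYC by -2.28 ± 0.31 (SE, edgeR BH-adjusted p = 0.00324) and -2.20 ± 0.33 (SE, edgeR BH-adjusted p = 0.00425). Of 19 neutrophil granule genes, 1 was called in each direction, Cybb toward BCR-ABL1 and Mmp8 toward C-MYC, at 1.72 and -1.35, of which only Cybb was called without BCR-ABL1 replicate 1, and the summed levels of the oncogene groups overlapped. How far cells of these types contribute to the genes higher in C-MYC was not tested.

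The remaining lists held few calls. Of 24 T and NK cell genes and 7 mast cell and basophil genes, 1 (Prf1) and 0 were called toward BCR-ABL1 and none toward C-MYC. Cd3e, the T cell receptor chain, had 0.806 and 1.12 CPM in BCR-ABL1, 0.735 and 0.539 in C-MYC and 17.1 and 15.4 in EV. It was low in both oncogene groups and was not called, at 0.60 ± 0.34 (SE, edgeR BH-adjusted p = 0.233). Of 12 dendritic cell genes, 2, Spib and Flt3, were called higher in BCR-ABL1, and of 8 erythroid and megakaryocyte genes 1, Car2. In these 4 lists 0 genes were called without BCR-ABL1 replicate 1. Of 13 stromal genes, 6 were called higher in BCR-ABL1 (2 and 0 without BCR-ABL1 replicate 1), at a median of 1.33. Col1a1, a collagen of fibroblasts, had 2.84 and 3.12 CPM in BCR-ABL1, 1.06 and 1.3 in C-MYC and 52 and 76.1 in EV. Both oncogene groups were far below EV, and the difference between them was 1.33 ± 0.28 (SE, edgeR BH-adjusted p = 0.0143). The summed stromal level of 579.9 and 530.2 CPM with BCR-ABL1 stood against 482 and 417 with C-MYC, and Vim, which blood cells also express, was among the called members. Of 22 stress genes, 5 were called higher in C-MYC and 2 in BCR-ABL1 (1 and 1 without BCR-ABL1 replicate 1). Jun, a component of AP-1, had 133 and 119 CPM in BCR-ABL1, 37.1 and 36 in C-MYC and 108 and 142 in EV. It was higher in BCR-ABL1, by 1.78 ± 0.16 (SE, edgeR BH-adjusted p = 0.000687), and the chaperone Hsp90aa1 was higher in C-MYC by -0.88 ± 0.16 (SE, edgeR BH-adjusted p = 0.00811).

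**Figure D5:**
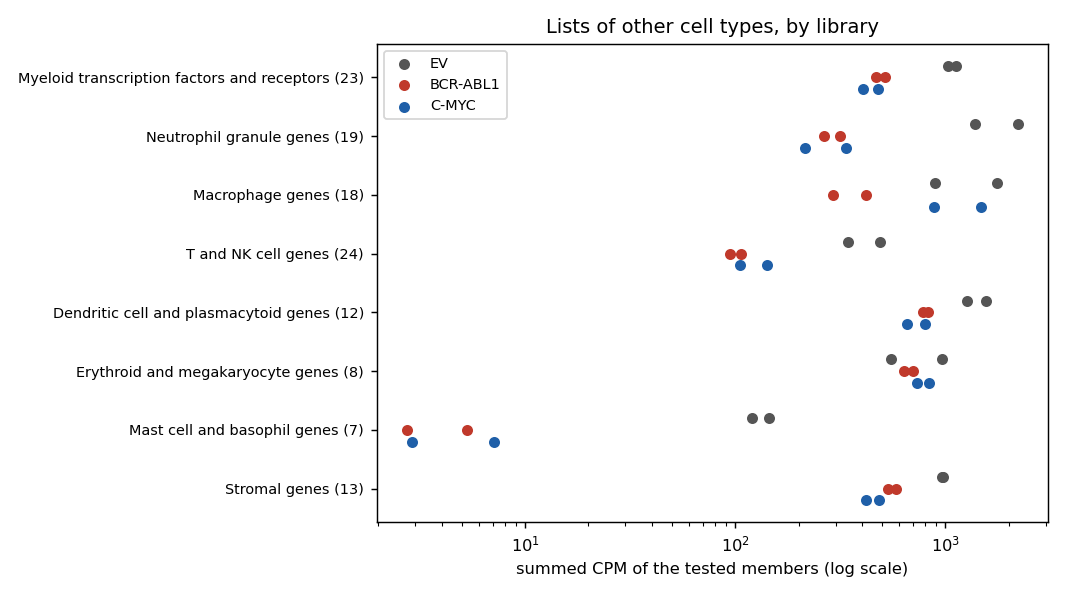
Summed CPM of the tested members (number in parentheses) of 8 lists for other cell types, on a log axis, with 1 point per library and 2 libraries per group. Only for the macrophage genes do both C-MYC libraries lie above both BCR-ABL1 libraries by more than 2-fold, and both EV libraries lie above the other 4 for 6 of the lists.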

How the data were processed

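RNA of 6 cultures was sequenced as poly(A) RNA, and the authors deposited a table of raw read counts per gene symbol and a table of FPKM values, normalized by the authors for length and depth. Per the labels, reads were aligned to GRCm38 with STAR 2.5.0, and FPKM values come from StringTie 1.3.0 with UCSC known genes. The counting program and its strand setting are not given in the sources used here. No column belonged to other samples (0).

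Counts were tested with edgeR 4.0.16 (R 4.3.3): TMM, filterByExpr by condition, a quasi-likelihood fit over all 6 libraries, the contrast BCR-ABL1 minus C-MYC and BH adjustment over 12786 genes at 0.05. The SE of a log2 fold change is its size over the square root of F. The study tested with DESeq2. In simulated counts of 12639 genes for this contrast, 76% of 200 changed genes were recovered and 11 unchanged genes called. The simulation gave all genes and groups the same dispersion and changed only genes above a minimum mean count. The real replicates spread unequally between groups, so the share recovered may differ in the real data. Named genes were the 20 largest called differences in each direction without overlap and with at least 50 counts on average, plus from each list its defining members and up to 8 called members per direction at the same minimum, Myc, Abl1, Bcr and Trp53bp1. Genes given outside that rule were chosen after their values were seen. The lists and genes were chosen with earlier results of these data known. Counting intervals of low counts are exact at 95% and cover counting error only.

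Alternatives were DESeq2 size factors, the DESeq2 test (1.42.0), no filter or a filter of 1 CPM in 2 libraries, only the 4 libraries compared, the replicate number as a block, limma 3.58.1 on log2 of FPKM plus 1 or 0.1, and leaving out each library. Figures were drawn with matplotlib 3.10.9. ChIP-seq files and promoter comparisons between gene groups were left out. Some genes are not reported here.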

Additional observations from a re-analysis of the deposited data

How the results depend on the processing

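Of 2991 genes called, DESeq2 size factors gave 3035, the DESeq2 test 3340, no filter 3370, a filter of 1 CPM 2969 and limma on log2 FPKM 2286 (plus 1) and 2560 (plus 0.1). Fitting only the 4 libraries compared gave 4538 calls, 2271 of them higher in C-MYC, and limma on FPKM plus 1 called 950 genes higher in C-MYC. The cause was not tested. Without 1 library, the calls ranged from 618 to 4519, those higher in BCR-ABL1 from 442 to 2284 and those higher in C-MYC from 176 to 2235. The lone library left in a group is there assumed to vary like the other groups. With the replicate number as a block, 4278 genes were called, among them all 2991. Deviations of same-numbered libraries correlated across genes at 0.204 between BCR-ABL1 and C-MYC, 0.273 between EV and BCR-ABL1 and 0.236 between EV and C-MYC, a hint from the data that libraries with the same number belong together. No label says that a number marks a batch, and only 2 numbers are shared, so the fit without the block was kept. Under the block, 12 genes named as not called were called in edgeR, with BH-adjusted p from 0.00139 (B2m) to 0.0471 (Cdk4), and 34 of 104 list counts moved by over 1.5 times, among them the cytosolic ribosomal protein genes higher in C-MYC, 24 in place of 10. No called gene changed sign in any fit on counts, while 10 did in each limma fit on FPKM. No scaling moved the median log2 fold change of all genes by more than 0.046. Of 48 lists with unequal counts in both directions, 6 turned their larger direction in at least 1 of 14 alternatives. These were RAS to ERK, fatty acid, lysosomal, mitosis, germinal center and plasma cell, and erythroid genes. With 2 libraries a group, differences below the spread between replicates could not be shown, and genes not called may still differ.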
